A study of Mus musculus with 2 samples.

Results

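Natural killer cells are innate lymphocytes that kill infected or transformed cells by releasing perforin and granzymes. They integrate signals from activating and inhibitory receptors, many of which are encoded together in the natural killer gene complex. Each cell switches on only some of the Ly49 receptor genes (Klra symbols in mouse), and maturing natural killer cells gain Klrg1, Itgam and the fractalkine receptor Cx3cr1. In the brain they are a small population beside the resident macrophages, the microglia.

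The natural killer cells described here were 80 of 2985 kept cells of the mouse central nervous system, whose polyadenylated RNA was read cell by cell on the 10x Genomics Chromium platform (3′ chemistry, v3.1). There were 2 libraries, both labelled as microglia-like cells. One was labelled Cx3cr1-/+ (heterozygous) and the other Cx3cr1+/+ (wild type), with 1 library per genotype. For both, the labels describe lineage-negative donor cells sorted as GFP+ and GFP- from Cx3cr1-/+ mice and transplanted by vein into CD45.1 mice, 1 donor per recipient. The recipients had first received busulfan, which depletes blood-forming cells, in 4 doses of 25 mg/kg each. The study asked how microglia-like progeny of Cx3cr1 haplo-insufficient and wild-type blood stem and progenitor cells differ in transcription. The donor of the wild-type library, the age of the animals and their number were not given in the labels used here.

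A cell was counted as a natural killer cell when it held at least 10 unique molecular identifiers (UMIs, one per captured transcript) of Gzma, Nkg7, Klre1, Ncr1 and Prf1 together. It also had to hold under 20000 CPM (UMIs of the genes per 1000000 UMIs of the cell) of the neutrophil genes S100a8 and S100a9, and under 2000 CPM of the C1q genes of microglia. Kept cells had at least 500 genes, under 10% mitochondrial UMIs and a barcode listed in only 1 library. A total of 339 barcodes were listed in both libraries and were left out. The rule took 25 of 1234 kept cells of the heterozygous library (2.03%, exact Clopper-Pearson 95% interval 1.32 to 2.98) and 55 of 1751 of the wild-type library (3.14%, 2.37 to 4.07). The 2 intervals overlapped. All intervals cover counting error only, and with 1 library per genotype there is no replicate check and no test across samples.

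The members held 287746 UMIs in the heterozygous and 350737 in the wild-type library. Their median depth was 8347 and 5138 UMIs, and the other kept cells had medians of 8464 and 7444. The sex marks of the members also differed between the libraries. Xist was found without a Y-linked transcript in 21 of 25 heterozygous members and in 0 of 55 wild-type members, and Y-linked transcripts were found in 0 and 24 members. Sex, depth and genotype therefore cannot be told apart in any difference between the libraries. In the wild-type library, Xist was found in 30.1% of other kept cells above the C1q limit only and 29.2% of those above the neutrophil limit. It was found in 1 of 55 members and 3.68% of cells with patrolling monocyte genes. Whether the members came from donors or recipients was not tested, and heterozygous and wild-type members are named by their library.

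The promoters of 3 of the marker genes are shown because the same short motif stands in each of them. They are the 250 bases before the RefSeq start, on the gene's strand, from RefSeq on GRCm38.p6, and capitals mark matches to TGTGGT (RUNX), AGGAAG (ETS) or GGTGTGA (T-box) on either strand. Gzma encodes granzyme A, Nkg7 a granule membrane protein and Ncr1 the activating receptor NKp46. Gzma lies at chr13:113100982-113101231 (minus strand), Nkg7 at chr7:43436888-43437137 (plus strand) and Ncr1 at chr7:4337474-4337723 (plus strand).
Gzma: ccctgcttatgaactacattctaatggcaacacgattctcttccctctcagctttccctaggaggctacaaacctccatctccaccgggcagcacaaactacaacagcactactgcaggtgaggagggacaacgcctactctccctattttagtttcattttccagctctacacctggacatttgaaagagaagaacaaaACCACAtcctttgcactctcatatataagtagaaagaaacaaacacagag
Nkg7: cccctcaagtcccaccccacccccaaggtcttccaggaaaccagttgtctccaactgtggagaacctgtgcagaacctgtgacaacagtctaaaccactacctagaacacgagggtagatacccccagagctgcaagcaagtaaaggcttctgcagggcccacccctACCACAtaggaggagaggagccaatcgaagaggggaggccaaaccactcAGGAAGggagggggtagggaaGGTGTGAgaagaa
Ncr1: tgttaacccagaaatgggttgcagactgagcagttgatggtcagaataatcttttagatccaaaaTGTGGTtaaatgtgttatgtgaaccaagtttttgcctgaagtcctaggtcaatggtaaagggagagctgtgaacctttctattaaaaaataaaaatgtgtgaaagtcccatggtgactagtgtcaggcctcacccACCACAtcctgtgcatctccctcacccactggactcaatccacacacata

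The letters TGTGGT or their reverse complement occurred in the 250 bases before a start of 12 of 19 marker and leading genes with a RefSeq promoter (63.2%), against 15.9% of 27025 genes. They stood 50 bases before the start of Gzma, 83 bases before that of Nkg7, and 185 and 50 bases before that of Ncr1. AGGAAG was found for 8 of the 19 genes (42.1%) and 32.3% of all genes, and GGTGTGA for 1 of 19 (5.26%) and 3.84% of all. A RUNX and a T-box match can share letters, but no matches share any in the 3 promoters printed. Of the genes with TGTGGT, Klrb1c, Klrc1, Klrc2, Klre1 and Klrk1 lie together in the natural killer gene complex and may not be separate observations. The 25 genes were chosen from these cells and only 19 had an entry, so these shares are a description.

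The marker genes chose the cells, so their values are a description, and where a marker gene is counted in a gene list this is said. Nkg7 was present in every member, with a lowest, median and highest value per cell of 336, 2952 and 5963 CPM in the heterozygous and 519, 3738 and 9603 CPM in the wild-type library. Gzma had 0 UMIs in 2 members of each library and reached 27605 and 33238 CPM. These ranges include 4 members with strong markers of other cells, described below. Without those 4, the lowest values were 1779 and 1399 CPM for Nkg7 and 0 and 2903 CPM for Gzma. Klre1, a lectin-like receptor, and Prf1, the pore-forming perforin, had medians of 926 and 851 CPM in heterozygous members and 994 and 1516 CPM in wild-type members. All 5 genes were found in 21 of 25 and 45 of 55 members. Just inside the threshold, at 10 to 19 marker UMIs, lay 3 heterozygous and 2 wild-type cells. Another 6 and 3 kept cells held 5 to 9 UMIs, whether or not they met the limits. With the limits, a threshold of 5 UMIs took 29 and 57 members. A further 1 heterozygous and 5 wild-type cells reached 10 UMIs but exceeded a limit on neutrophil or C1q transcripts.

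**Figure D1:**
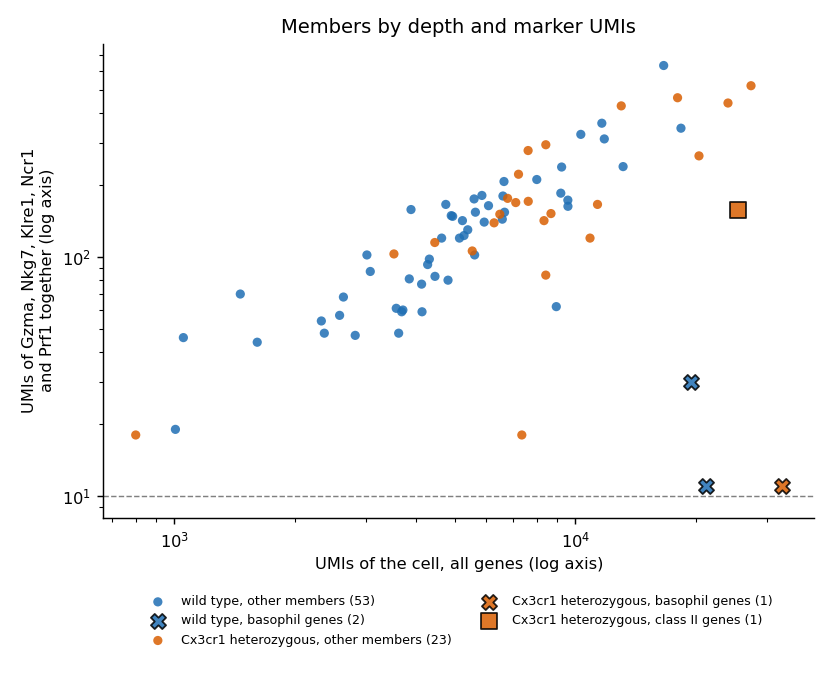
Each point is a member, with its UMIs over all genes (log axis) and its UMIs of the 5 marker genes (log axis). Colours give the library, crosses the 3 members with basophil genes and the square the member with class II genes, and the dashed line is the threshold of 10 UMIs; the 3 crosses sit at 11, 11 and 30 marker UMIs although their cells are deep.

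Natural killer genes that the rule did not use were found in many members. The receptor genes Klrb1c (NK1.1) and Klrk1 (NKG2D) were found in 23 and 23 of 25 heterozygous and in 47 and 50 of 55 wild-type members. Of 12 natural killer genes in the marker list, 5 are the marker genes that chose the cells. The other 7 were at least 2-fold higher by summed UMIs in the members than in the other kept cells in both libraries, among them the transcription factors Eomes (132 and 151 CPM) and Tbx21 (97.3 and 91.2 CPM) and the interleukin-15 receptor chain Il2rb (386 and 342 CPM). Of 1780 genes that reached 50 UMIs (called tested genes, although no p-value was made), 304 (17.1%) were 2-fold higher and 64 (3.6%) were 2-fold lower in both libraries. The same UMIs chose the cells, so this is a description. Of 15 T cell genes, 6 (Cd3e, Cd4, Cd8a, Cd8b1, Cd5 and Cd6) had 0 UMIs in all members, where 3 UMIs would have been 10.4 and 8.55 CPM. Transcripts of Cd3d or Cd3g were found in 5 of 25 and 9 of 55 members, with at least 3 UMIs in 2 and 3 of them and a highest value of 18 and 5 UMIs. Trac, Trdc, Trdv4, Cd28 and Bcl11b of this list also had UMIs among the members, and their separate values are not given. The T cell receptor constant genes Trbc1 and Trbc2 were found, as either gene, in 22 of 25 and 38 of 55 members. With them the T cell list summed to 1136 and 513 CPM, against 5.68 and 4.14 CPM in the other kept cells. Of 8 genes of other innate lymphoid cells 6 had 0 UMIs, as did 5 of 8 B cell genes. The 12 microglia and macrophage genes summed to 493 and 408 CPM, against 27296 and 17236 CPM in the other kept cells, and P2ry12, a receptor of microglia, had 0 and 2 UMIs.

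Another 4 members carried strong markers of other cells. Among them, 1 heterozygous and 2 wild-type members held 736, 302 and 484 UMIs of the basophil list (Mcpt8, Cpa3, Fcer1a, Ms4a2, Cd200r3 and Gata2), and no other member held more than 1. They carried Nkg7 at 11, 11 and 30 UMIs and 0 UMIs of the other 4 marker genes. Another heterozygous member held 978 UMIs of the antigen-presentation genes Cd74, H2-Aa, H2-Ab1 and H2-Eb1 beside 106 of Gzma, and no other member held more than 4. Leaving these 4 cells out gives 23 heterozygous and 53 wild-type members. Some values are given with and without the 4 cells, and others only with or only without them. The shares of kept cells, the T cell counts, the leading genes and most marker values include them.

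The 20 genes that led the members over the other kept cells are also a description. They were taken by the lower of the libraries' folds after adding 10 CPM, leaving out the marker genes. Ccl5, a chemokine that draws T cells and natural killer cells, stood at 18294 CPM in heterozygous and 35471 CPM in wild-type members, against 37.8 and 65.7 CPM in the other kept cells. Gzmb, the granzyme that cleaves caspases, stood at 1390 and 1964 CPM against 0.684 and 4.98. Ifng, the interferon that activates macrophages, stood at 365 and 422 CPM against 0.137 and 0.838. The kinases Txk (459 and 684 CPM) and Lck (240 and 288 CPM), the granule protease Ctsw (372 and 493 CPM) and the granzyme inhibitors Serpinb9 and Serpinb6b were also among them.

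**Figure D2:**
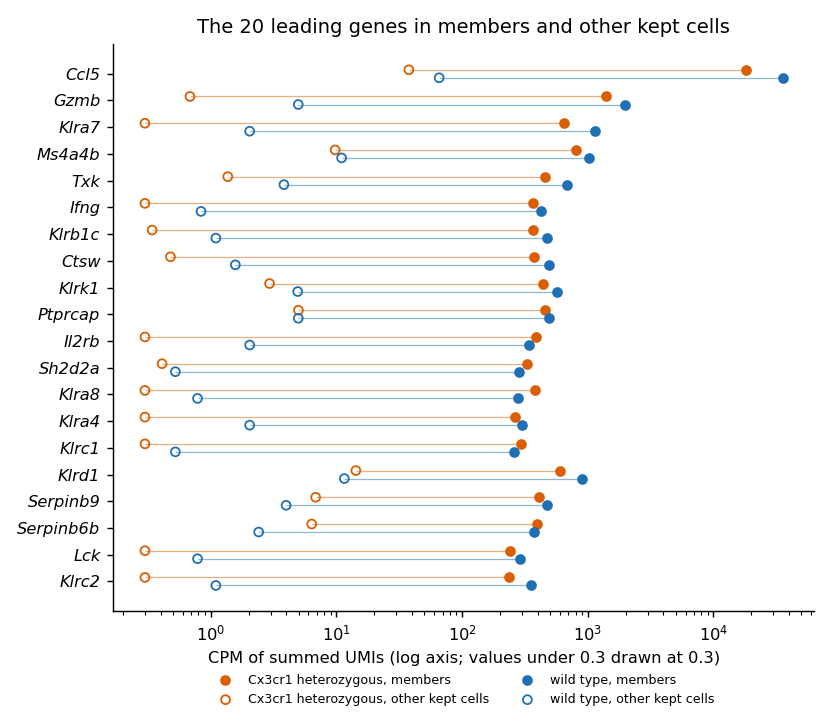
CPM of summed UMIs (log axis) of the 20 leading genes, with filled points for the members and open points for the other kept cells of each library. Values under 0.3 CPM are drawn at 0.3, and every filled point lies far to the right of its open point.

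Of the 20 leading genes, 8 lie in the natural killer gene complex, as does the marker Klre1. In GRCm38 (GENCODE M21) the 24 Klr genes of this stretch span chr6:128609227-131247362, from Klrb1a to Klra2. The 8 genes are Klra7, Klra8, Klra4, Klrb1c, Klrk1, Klrc1, Klrd1 and Klrc2, which encode activating or inhibitory lectin-like receptors or their partner chain CD94 (Klrd1). Of 17 genes with 50 UMIs or more in this stretch, 16 were at least 2-fold higher in the members in both libraries, where 17.1% of all tested genes were. The marker Klre1 is 1 of the 16. The 50 UMIs were counted in the members alone, so a gene nearly silent in the other kept cells enters only through the members. The 16 of 17 is therefore a description, not a test of enrichment.

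Ly49 receptor genes were patchy from cell to cell. Among the 23 and 53 members, Klra7 (the inhibitory receptor Ly49G) was found in 12 heterozygous (52.2%, 30.6 to 73.2) and 41 wild-type cells (77.4%, 63.8 to 87.7). Klra8, the activating receptor Ly49H that recognises a cytomegalovirus protein, was found in 8 and 22 cells, and Klra4, the activating Ly49D, in 6 and 11. Klra9 was found in 5 and 17 cells and Klra3 in 5 and 14. Of 7 Ly49 genes counted, heterozygous members held 0 in 3 cells, 1 in 8, 2 in 6 and 3 or more in 6. Wild-type members held 0 in 3 cells, 1 in 14, 2 in 17 and 3 or more in 19. The medians were 2 genes per cell in both libraries, and 4 was the most in any cell.

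Where a Ly49 gene was on, it was often well above 1 UMI. Klra7 ranged from 3 to 51 UMIs (median 10.5) in the heterozygous cells that had it and from 1 to 28 UMIs (median 7) in the wild-type cells. After scaling every cell to 2000 UMIs, the expected share with Klra7 was 47.4% of 22 heterozygous and 70.3% of 49 wild-type cells deep enough. In sequence, 0% of the 90-base windows in the last 500 transcript bases of Klra7, Klra4 and Klra8 were shared with another Ly49 gene. Klra3 shared 5.15% and Klra9 4.74%, so a few of their reads could not be placed by sequence alone.

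**Figure D3:**
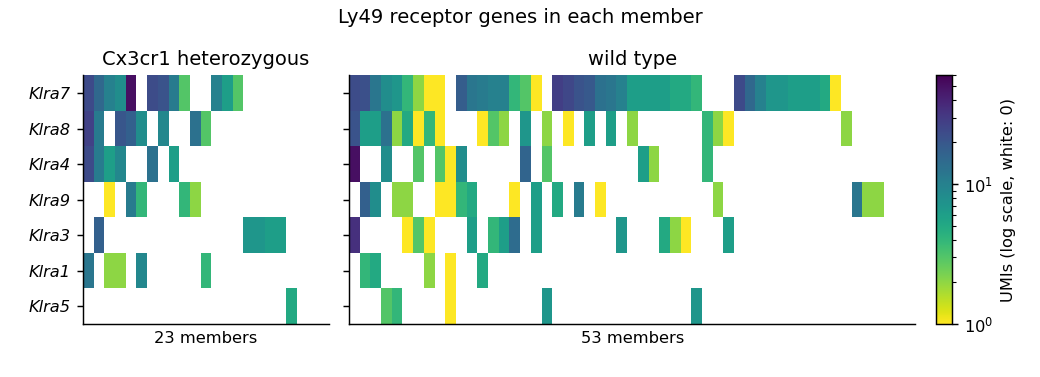
UMIs (log colour scale, white for 0) of 7 Ly49 genes in each of the 23 heterozygous and 53 wild-type members, 1 column per cell, ordered by the number of genes found. Klra7 fills the most columns in both panels, 12 and 41, and the columns differ in which other genes they hold.

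Between the libraries, 150 of 1780 genes (8.43%) were at least 1.5-fold higher and 132 (7.42%) at least 1.5-fold lower in the heterozygous members by summed UMIs. The median log2 ratio over all 1780 genes was 0.02. For 112 (6.29%) and 83 (4.66%) of them the counting interval also left out 1. Without the 4 cells above, the counts were 135 and 109.

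The highest ratios belonged to class II and cell cycle genes. H2-Aa, H2-Eb1, H2-Ab1 and Cd74 had log2 ratios of 6.66, 4.42, 4.26 and 5.31, and without the 4 cells 0.43, -2.37, 1.02 and -0.40. The cytokine gene Il1b went from 3.80 to -0.15 in the same way. The histone genes Hist1h2ap (1369 against 137 CPM), Hist1h2ae, Hist1h1b and Hist1h4d and the nucleotide enzyme Rrm2 had log2 ratios of 3.32, 2.46, 2.25, 2.16 and 2.31. Without the 4 cells these were 3.42, 2.69, 2.25, 1.60 and 2.87. Several did not keep their direction without the dividing members described next. Leaving these out too, Hist1h2ap was at 2.47 and Hist1h2ae at 0.69. Hist1h1b was then at -0.90 (-2.95 to 0.75) and Hist1h4d at -0.57 (-3.92 to 1.91). Without members over 20000 UMIs, Rrm2 was at -0.52 (-2.14 to 0.87).

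Cell cycle genes were higher in the heterozygous members as a group. Of 11 tested genes of the dividing-cell list, 10 passed 1.5-fold upward, where 8.43% of all tested genes did, and 0 downward. The median log2 ratio was 1.05, and 0.06 without the 4 cells and the dividing members defined here. Top2a, which untangles replicated DNA, stood at 473 against 197 CPM, and Mki67, a standard mark of cycling cells, at 299 against 131 CPM. In that smaller set the log2 ratio of Top2a turned to -1.45 (-4.66 to 0.75). The dividing members were picked by 9 genes of this list, Top2a and Mki67 among them, so these falls follow from the choice. Members with at least 20 UMIs over 9 cycle genes, a threshold chosen after the values were seen, numbered 6 of 23 heterozygous (26.1%, 10.2 to 48.4) and 7 of 53 wild-type cells (13.2%, 5.48 to 25.3). The 2 intervals overlapped. These dividing members held 44 to 151 and 22 to 87 cycle UMIs, and the rest at most 5 and 9. They were deeper, at median 19144 against 7211 UMIs in the heterozygous and 10311 against 4694 in the wild-type library, and supplied 48.5% and 23.3% of the members' UMIs.

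Cx3cr1, the gene of the genotype labels (chr9:119901616-120069879, minus strand, GRCm38), was low in most members. It had 19 UMIs in heterozygous and 64 in wild-type members, or 66.0 and 182 CPM, a ratio of 0.36 (0.20 to 0.61) and a log2 ratio of -1.47 (-2.29 to -0.71). Per cell the lowest, median and highest values were 0, 0 and 1134 CPM in the heterozygous and 0, 0 and 1370 CPM in the wild-type library, so the ranges overlapped from 0 to 1134 CPM. It was found in 9 of 25 and 25 of 55 members, 36.0% and 45.5%. Scaled to 2000 UMIs, the expected shares were 16.4% of 24 and 26.6% of 51 cells. In cells with B cell genes, which should lack Cx3cr1, it was found in 0 of 9 heterozygous cells (a count of 0 here allows up to 33.3%) and in 1 of 7 wild-type cells, at median depths of 3114 and 3773 UMIs. That wild-type cell held 4 UMIs of Cx3cr1. Itgam (6 UMIs) and S1pr5 (2 UMIs) were also each found in 1 of the 7. Whether this was a mixed barcode was not tested, so no background rate is drawn from it.

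Cx3cr1 is given next for the dividing members and for the rest. The 6 heterozygous dividing members held 2 UMIs of Cx3cr1 (18.0 CPM), and the 7 wild-type ones held 27 (374 CPM), of which 11, 8, 5 and 3 came from 4 cells. In the remaining members the values were 144 and 155 CPM, a log2 ratio of -0.11 (-1.03 to 0.75). Without the 4 cells with other-type genes but with the dividing members it was -1.32. With each member weighted equally it was -0.77, and it was also -0.77 (-1.61 to 0.0048) without members over 20000 UMIs. Elsewhere in the libraries the ratio was 0.94 in C1q cells, 0.80 in cells with neutrophil genes and 0.68 in cells with patrolling monocyte genes. In all other kept cells under the same limits on neutrophil and C1q transcripts it was 0.53. Dividing members thus had less Cx3cr1 than the rest in the heterozygous library and more in the wild-type library. This rests on 13 cells and a threshold chosen after the values were seen, and the part of cell division in the difference was not tested.

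Most other genes of mature natural killer cells were also lower in the heterozygous members. Of 10 tested genes of that list, 8 passed 1.5-fold downward in the heterozygous members and 0 upward, where 7.42% of all genes did so downward, and the median log2 ratio was -0.80. The 8 include Cx3cr1 and the marker gene Prf1, and without both the count is 6 of 8. Klrg1, an inhibitory receptor of mature cells, stood at 215 against 371 CPM, and Itgam, an integrin chain, had 29 against 68 UMIs. Cma1, a protease gene, stood at 209 against 365 CPM and the transcription factor Zeb2 at 125 against 222 CPM. These are summed values, in which deep cells weigh more. The median per cell was 240 and 241 CPM for Klrg1, and 141 and 354 CPM for Cma1. Without the 4 cells and the dividing members, the sums were 347 and 374 CPM for Klrg1 and 423 and 416 CPM for Cma1. The median log2 ratio of the list was -0.66 without the 4 cells, and -0.12 when the dividing members were also left out. Gzmb went the other way, from -0.50 to -0.92. Of 5 tested genes of immature natural killer cells, Thy1 (0.97) and Cd7 (0.69) were higher and 1 was lower. Their median was 0.50, and 0.28 without the 4 cells and the dividing members.

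**Figure D4:**
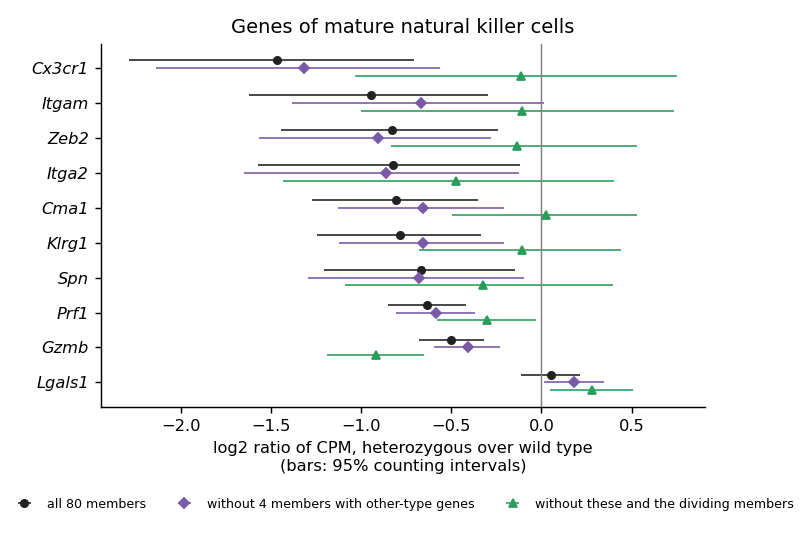
Log2 ratios of CPM (heterozygous over wild type) with 95% counting intervals for the 10 tested genes of mature natural killer cells, over all 80 members, without 4 members with other-type genes, and without these and the dividing members. Cx3cr1 moves from -1.47 to -0.11 and Gzmb from -0.50 to -0.92.

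Ccl5 differed in the same direction and was also lower in dividing members. Per cell, the lowest, median and highest values were 0, 18531 and 79203 CPM in the heterozygous and 0, 42662 and 97912 CPM in the wild-type library, with wide overlap. Without the 4 members with other-type genes, the lowest values were 2083 and 335 CPM. Over all members the log2 ratio of the sums was -0.96, and its counting interval is narrow because it does not cover the spread between cells. Dividing members had summed values of 8682 and 23720 CPM, the others 35738 and 45073 CPM, and the log2 ratio among the others was -0.33.

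**Figure D5:**
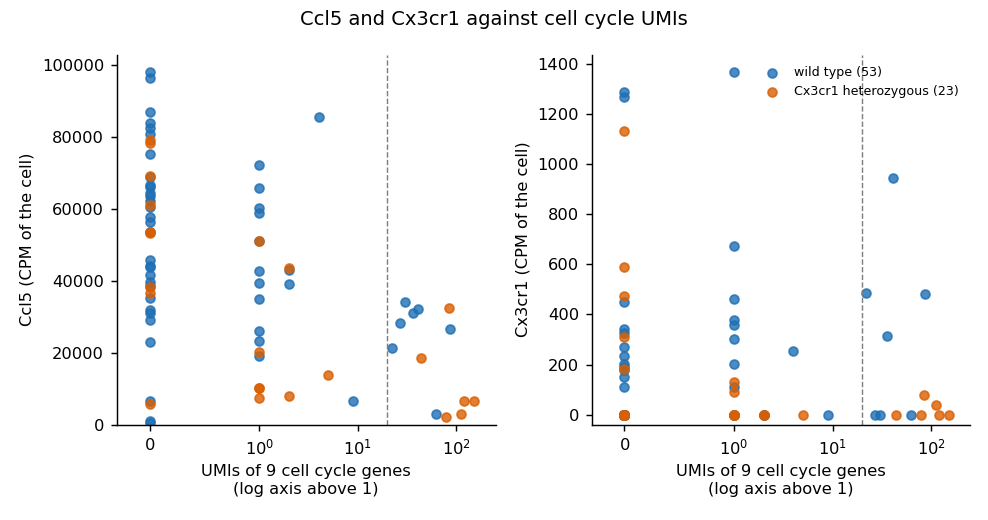
Ccl5 (left) and Cx3cr1 (right) in CPM of each cell against its UMIs of 9 cell cycle genes (log axis above 1), for 23 heterozygous and 53 wild-type members, with the dashed line at 20 UMIs. Right of the line the 6 heterozygous cells lie near 0 for Cx3cr1, and 4 of the 7 wild-type cells lie above them.

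Receptors, granule genes and transcription factors are read beside all tested genes, of which 8.43% were higher and 7.42% lower. Of 7 tested inhibitory receptor genes, 4 were lower (Klra3, Klra7, Klra9 and Klrg1) and 0 higher, with a median of -0.74 and, without the 4 cells and the dividing members, -0.11. Klra7 kept its lower value in that set, at -1.14. Of 12 activating receptor genes, 1 was higher (Klrb1b) and 1 lower (the marker Ncr1), counts near those shares, with a median of -0.22. Of 11 cytotoxic granule genes, Ctsc was higher, and Lamp1 and the marker Prf1 were lower, with a median of -0.30. Of 12 transcription factor genes only Zeb2 passed 1.5-fold, with a median of -0.12, and Eomes, Tbx21 and Id2 had log2 ratios of -0.19, 0.09 and -0.09. Without the 4 cells and the dividing members these were 0.75, 0.72 and 0.02. Of 9 signalling adaptor and kinase genes only Hcst, the DAP10 adaptor of NKG2D, passed 1.5-fold, at 483 against 807 CPM. Of 11 tested class I antigen-presentation genes 0 passed it in either direction.

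A minority of members held Xcl1, the chemokine that draws cross-presenting dendritic cells. It was found in 11 of 25 heterozygous and 10 of 55 wild-type members, and cells with at least 4 UMIs, a threshold chosen after the values were seen, numbered 8 and 7 and held 96.3% and 91.3% of its UMIs. These cells had a lower median Ccl5 than the 12 and 43 cells with 0 UMIs of Xcl1, leaving out the 4 cells above, at 9025 against 47230 CPM in the heterozygous and 25960 against 45680 CPM in the wild-type library. Their median depth was higher, at 9110 against 7622 and 6570 against 4811 UMIs. Trbc1 and Trbc2 were higher in the heterozygous members, at 427 against 202 and 462 against 128 CPM. Of the 90-base windows in their last 500 transcript bases, 29.6% and 8.03% are shared with the other gene, so the split between them is uncertain.

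The lowest ratios rested on few UMIs. Spp1, a secreted protein of activated macrophages, had a log2 ratio of -2.99, and 97 of its 116 wild-type UMIs came from 3 cells with 41, 29 and 27. Entpd1, which breaks down extracellular ATP, had 10 and 40 UMIs and a log2 ratio of -1.71, found in 7 of 25 and 28 of 55 members. The haemoglobin gene Hbb-bs was at -1.56 and Klra9 at -1.37, and Hbb-bs was at -0.89 without the 4 cells. Cr1l, Borcs7, Ssna1, Ccl6 and Txnip followed at -1.30, -1.26, -1.22, -1.19 and -1.19. Ccl6 was found in 2 and 3 members. It was at 0.062 (-5.82 to 4.33) without members over 20000 UMIs. Without the 4 cells and the dividing members it was at 1.01 (-5.28 to 7.30). Apoe was higher, at 198 against 74.1 CPM, and in the other kept cells of the same libraries it stood at 13257 against 5669 CPM; the part of free RNA in this was not tested.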

How the data were processed

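The authors deposited raw UMI counts per gene and cell barcode, not normalized, for 32285 genes. They used Cell Ranger 4.0 and mm10, per the submitters' processing notes, while the file headers name version 5.0.0. The members and gene lists were chosen with earlier results of these data known.

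UMIs of the members were summed per library and expressed as CPM of that sum, so deep cells weigh more. Ratios (heterozygous over wild type) carry exact conditional binomial intervals, CPM Poisson and shares Clopper-Pearson intervals, all at 95%. Genes needed 50 UMIs over both sums. No p-value was computed. Intervals were checked only on simulated counts without spread between cells, which is what they assume. That check therefore does not cover the spread between cells here.

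Shares at equal depth are the expected share over all possible draws of 2000 UMIs per cell, computed from the hypergeometric distribution. This was chosen after a pair of random draws disagreed. For Cx3cr1 they gave 2 and 6 of 24 heterozygous and 14 and 12 of 51 wild-type members.

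No doublet caller was run; members with genes of other cell types were counted instead. Cells were not clustered. Genes named were Cx3cr1, the 5 marker genes, the 10 highest and 10 lowest ratios beyond 1.5-fold whose interval left out 1 (predicted, ribosomal, mitochondrial, Xist and Y-linked genes left out), the 20 leading genes, and list members with at least 20 UMIs, up to 8 per list by abundance. Some genes that the rule takes are not reported here. Genes named outside this rule were chosen after their values were seen. Alternatives were other cell filters, marker thresholds, limits, scalings (TMM in edgeR 4.0.16) and UMI minimums. Alternatives chosen after seeing the data left out the basophil-gene, class II and dividing members. Positions came from GENCODE M21. Software was Python 3.11.15 with scipy 1.17.1.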

Additional observations from a re-analysis of the deposited data

Results flagged for a closer look

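Barcodes that no comparison uses also met the marker rule. Among barcodes listed in both libraries, 6 in the heterozygous library and 2 in the wild-type one passed the cell filter and the rule. Among barcodes outside the gene and mitochondrial filter, 7 of 264 in the heterozygous and 3 of 269 in the wild-type library met it. The counts of 6, 7 and 3 were singled out because a signal appeared in data left out of the report, at or above the limit of 3 cells. The 2 wild-type barcodes listed in both libraries were under that limit and are given beside them.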

How the results depend on the processing

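No paired analysis was possible because each genotype had 1 library. Of 125 recomputed values of the main results over 22 settings, 111 stayed within their interval or within 1.5 times the count, and 0 reversed. Of these 8 results only the log2 ratio of Cx3cr1 could reverse, since shares and counts have no sign. Thinning does not enter that ratio, so the settings that change thinning could not move it. The share of natural killer cells ranged from 1.38 to 2.38% in the heterozygous and from 2.63 to 3.47% in the wild-type library. A threshold of 5 marker UMIs and the rule without Gzma took the same 29 heterozygous and 57 wild-type cells, so they are 1 alternative, not 2. The log2 ratio of Cx3cr1 ranged from -2.34 (limits on neutrophil and C1q transcripts not applied) to -0.11 (4 cells with other-type genes and dividing members left out). Its interval included 0 in 2 settings, that last one (-1.03 to 0.75) and without members over 20000 UMIs (-1.61 to 0.0048). The counts of genes 1.5-fold higher and lower were 277 and 263 without those limits, 538 and 497 at a minimum of 20 UMIs, 64 and 35 at 100 UMIs, and 40 and 63 without the 4 cells and dividing members; more or fewer genes were tested in each. Without members over 20000 UMIs, 72 genes were higher. Without thinning, Cx3cr1 was found in 45.5% of wild-type members, and 2 single random draws disagreed, at 8.33 and 25.0% of heterozygous members. Genes at least 4-fold over the other cells in both libraries, a stricter definition, numbered 123. Those at least 2-fold over them numbered 160 without the 4 cells and dividing members.

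Signs turned as follows, and the cause was not tested. Only Apoe and Cst3, at 1.42 and 2.02 over all members, had intervals that left out 0 after turning. The other turned values had intervals that included 0, so their new sign is uncertain. Without the limits, Apoe was at -3.75, Cst3 at -0.78, Klra3 at 0.0077 and the median of inhibitory receptors at 0.0077. Without members over 20000 UMIs, Ccl6 was at 0.062, Rrm2 at -0.52, H2-Eb1 at -1.75 and Cd74 at -0.13. Without the class II cell, H2-Eb1 was at -2.39 and Cd74 at -0.43. Without the 4 cells, Il1b was at -0.15, H2-Eb1 at -2.37 and Cd74 at -0.40. Without these and dividing members, Ccl6 was at 1.01, Hist1h1b at -0.90, Hist1h4d at -0.57, Cd74 at -0.18, Ncr1 at 0.0020, Top2a at -1.45 and Cma1 at 0.025.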
